A study of Mus musculus with 30 samples.

Results

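The 10 genes described here encode Toll-like receptors (Tlr1, Tlr2, Tlr3, Tlr4, Tlr6, Tlr7, Tlr9 and Tlr13), the co-receptor Cd14 and the adaptor Myd88. They were chosen by name, and all 10 were found as protein-coding rows among the 30952 genes measured. RNA was sequenced from microglia and astrocytes sorted from the spinal cord of C57BL/6 mice, microglia as CD11b+ cells with intermediate CD45 and CX3CR1, astrocytes as GLAST+ cells without CD11b, CD45 and CD140a. The naive groups came from mice without disease and held 4 microglia and 4 astrocyte libraries. The EAE-vehicle groups held 6 libraries of each cell type, from female mice immunized with the MOG35-55 peptide to induce experimental autoimmune encephalomyelitis (EAE), a model of multiple sclerosis, and given vehicle (20% Captisol) by mouth for 3 days once signs of disease had appeared. The EAE-RIPK1inh groups held 5 libraries of each cell type, from mice immunized in the same way that received GSK'547, an inhibitor of the kinase activity of RIPK1, at 50 mg/kg in repeated daily doses over the same 3 days. Immunized mice were 8 to 10 weeks old at immunization. Per the study's methods, the peptide was given in complete Freund's adjuvant, with injections of pertussis toxin. Neither is described for naive mice, so their part in differences from naive mice cannot be told apart from that of the disease. The number of libraries in each group matches the study's number of mice, so a library is read here as 1 mouse. Both cell types were isolated from the same mice, but whether equal library numbers mark the same mouse is not given in the sources used here.

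Toll-like receptors recognise microbial molecules and molecules released from damaged cells. TLR2 pairs with TLR1 or TLR6 to sense lipoproteins at the cell surface, TLR4 senses lipopolysaccharide with the help of CD14 and MD-2, and TLR3, TLR7, TLR9 and TLR13 sense nucleic acids inside endosomes. All of these receptors except TLR3 signal through MYD88 to the transcription factor NF-κB, whereas TLR3 uses the adaptor TRIF. Microglia, the resident macrophages of the CNS, are known to express most of the family, and TLR3 is the member best known from astrocytes.

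Promoter sequence is shown for Tlr2, because it was the member higher in EAE microglia whose upstream window held a match to the κB consensus, the DNA element that NF-κB binds. RefSeq sequences (GRCm38.p6) of the 250 bases before the start were found for 7 of the 10 genes, in 9 windows, with no entry for Tlr4, Tlr7 and Cd14. The stretch below is the part of the Tlr2 window that no annotated exon of the gene covers, chr3:83841768-83841858, minus strand, 91 bases, written 5′ to 3′ with the κB matches in capitals.
Tlr2: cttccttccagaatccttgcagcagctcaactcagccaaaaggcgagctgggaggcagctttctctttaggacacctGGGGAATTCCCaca
The capitals hold 2 overlapping matches that begin at positions −173 and −172 relative to the start, and 7.25% of all 32851 windows hold at least 1 match on either strand. Tlr3 had 1 κB match, within an annotated exon, and the windows of Tlr1, Tlr6, Tlr9, Tlr13 and Myd88 had none. The AP-1 element (TGANTCA, either strand) was found in the window of Tlr9 and in 6.75% of all windows. A match describes these letters only and no binding was measured.

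The positions below are those of the deposited gene annotation and are identical in GENCODE M21 (mouse build GRCm38). Tlr1 (ENSMUSG00000044827, chr5:64924679-64933563) and Tlr6 (ENSMUSG00000051498, chr5:64952031-64960097) lie on the minus strand 18468 bases apart. Their transcripts share 454 stretches of 50 bases, which is 13.6% of those of Tlr1 and 12.3% of those of Tlr6, so reads from these stretches can be assigned to either gene and both values carry that uncertainty. Tlr2 (ENSMUSG00000027995) lies at chr3:83836272-83841767, Tlr3 (ENSMUSG00000031639) at chr8:45395665-45411080, Tlr4 (ENSMUSG00000039005) at chr4:66827584-66930284 and Tlr9 (ENSMUSG00000045322) at chr9:106222598-106226883. Tlr7 (ENSMUSG00000044583, chrX:167304929-167330558) and Tlr13 (ENSMUSG00000033777, chrX:106143204-106160493) are X-linked, Cd14 (ENSMUSG00000051439) lies at chr18:36725067-36726798, and Myd88 (ENSMUSG00000032508) at chr9:119335934-119341411. Myd88 overlaps Slc22a14 on the same strand over 5478 bases and Acaa1a on the other strand over 1736 bases. Tlr3 overlaps the antisense gene Gm45542 over 698 bases. Whether reads were counted by strand is not given in the sources used here, so reads of these overlapping genes cannot be told apart in the values of Tlr3 and Myd88.

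Levels are given as log2 FPKM (fragments scaled to transcript length and library total, on a log2 scale), as deposited, after quantile normalization that gave all 30 libraries the same set of values. A level can be compared between genes because FPKM is per length, and a difference between groups is a difference of mean log2 levels. Where a library had no signal for a gene, the table holds one of its lowest values rather than an empty cell, and such values reached 2.74 in 1 astrocyte library. Genes with signal ranged from 8710 to 20398 per microglia library and from 6728 to 22981 per astrocyte library. Naive microglia library 4 (8710 genes) and EAE-vehicle astrocyte library 1 (6728 genes) had the fewest. The mean of 10 microglia markers was 9.19 to 11.2 in microglia libraries and 1.03 to 4.83 in astrocyte libraries, while that of 8 astrocyte markers was 7.85 to 9.39 among astrocytes and did not exceed 2.12 among microglia. Both sorted types thus carried their own markers, and astrocyte libraries also carried oligodendrocyte markers (mean of 7 genes 6.19 to 9.91) and neuron markers (mean of 6 genes 4.34 to 5.82). Microglia libraries carried monocyte and neutrophil markers (mean of 9 genes 3.00 to 9.31). The part of these other cells in the levels below was not tested.

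The 10 genes were expressed at very different levels in naive microglia. Cd14 had the highest mean level, 9.53 ± 0.32 (SD, n = 4), which was above 99.6% of 17889 protein-coding genes. Tlr7 (6.87 ± 0.15) and Tlr13 (6.69 ± 0.72), which sense RNA in endosomes, came next and overlapped each other, and neither reached the range of Cd14. Tlr2 (5.81 ± 0.58) and the adaptor Myd88 (5.38 ± 0.64) followed and overlapped each other. Tlr4 (4.58 ± 0.45), Tlr6 (4.15 ± 0.45), Tlr1 (4.05 ± 1.45) and Tlr3 (3.73 ± 2.08) did not differ from their neighbours beyond the spread. Tlr9, the receptor for CpG DNA, was lowest at 1.31 ± 0.92, with no signal in 1 of the 4 libraries.

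**Figure D1:**
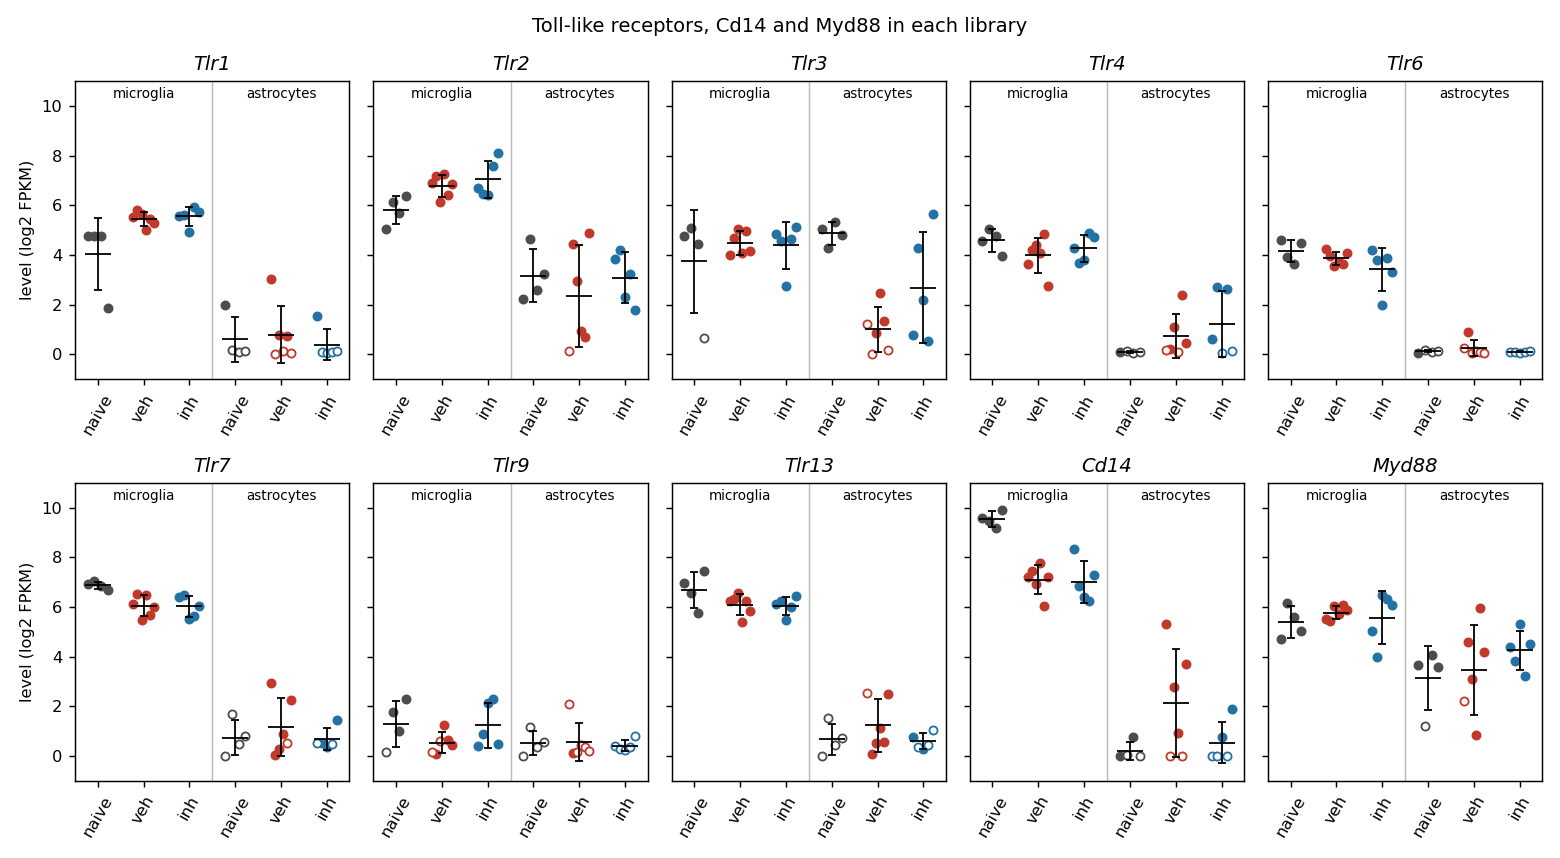
Each point is 1 library, with its level (log2 FPKM) on the vertical axis and the group on the horizontal axis (naive, EAE-vehicle as veh, EAE-RIPK1inh as inh), and open points are values without signal. Bars give the mean ± SD of each group (n = 4, 6 and 5), and Cd14 in microglia (naive 9.16 to 9.92, EAE-vehicle 6.02 to 7.77) and Tlr3 in astrocytes (naive 4.27 to 5.34, EAE-vehicle 0 to 2.48) show separated groups.

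In EAE-vehicle microglia the order changed at the top. Cd14 was still highest at 7.10 ± 0.60 (SD, n = 6), but Tlr2 came second at 6.79 ± 0.44 and overlapped it, followed by Tlr13 (6.10 ± 0.42), Tlr7 (6.05 ± 0.42), Myd88 (5.77 ± 0.27) and Tlr1 (5.45 ± 0.28). Tlr3 (4.48 ± 0.47), Tlr4 (3.98 ± 0.72) and Tlr6 (3.86 ± 0.26) formed an overlapping group below, and Tlr9 (0.53 ± 0.42) stayed last. In EAE-RIPK1inh microglia Tlr2 (7.05 ± 0.74, n = 5) and Cd14 (7.01 ± 0.84) overlapped at the top and Tlr9 (1.24 ± 0.91) was again last.

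**Figure D2:**
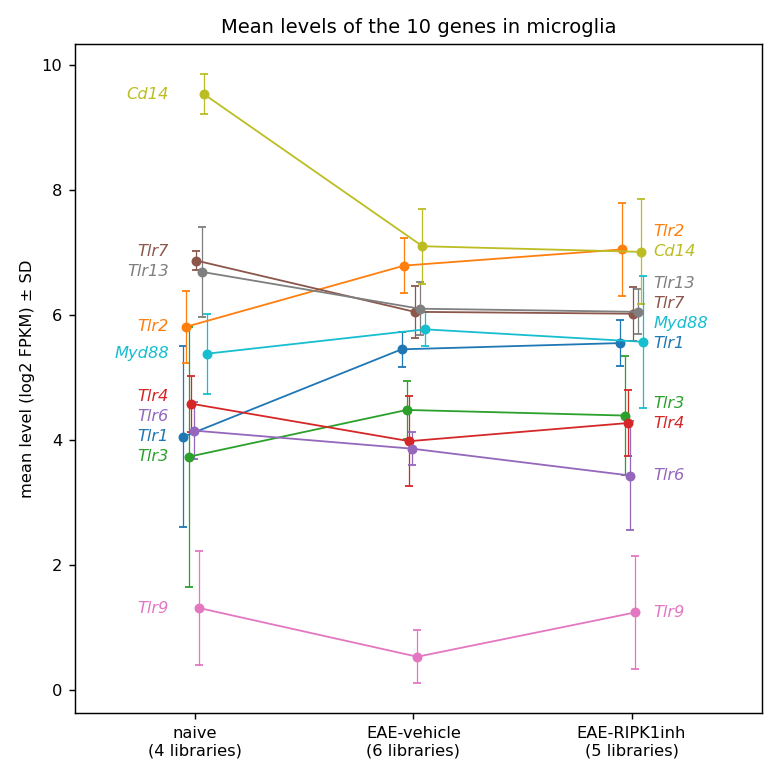
Lines join the mean level (log2 FPKM, vertical axis) of each gene across the 3 microglia groups (horizontal axis), with SD bars. Cd14 goes from 9.53 in naive to 7.10 in EAE-vehicle while Tlr2 goes from 5.81 to 6.79 and Tlr1 from 4.05 to 5.45.

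Astrocytes expressed few of the genes. In naive astrocytes Tlr3 was highest at 4.87 ± 0.45 (SD, n = 4), above 87.7% of protein-coding genes, followed by Tlr2 (3.17 ± 1.06) and Myd88 (3.14 ± 1.29), which overlapped each other. Tlr7, Tlr9 and Tlr13 had no signal in any of the 4 naive astrocyte libraries, Tlr1, Tlr4 and Tlr6 had signal in 1 each, and Cd14 had signal in 2, at levels of at most 0.76. For Tlr7 and Tlr13 the listed values in these libraries, up to 1.68 and 1.51, are therefore values without signal.

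Microglia and astrocytes of the same treatment were then compared in 1 limma fit over all 30 libraries, which treats libraries as independent although both cell types came from the same mice. Pairing equal library numbers of the 2 cell types as a block left every count of called genes in these comparisons as it was. A gene is called here when its fold change exceeded 1.5 and its unadjusted p was under 0.05, the cutoff the study used, and adjusted p-values are Benjamini-Hochberg values over all genes tested. In naive mice 8 of the 10 genes were higher in microglia, against 19.7% of all genes called in either direction and 10.0% called higher, and 7 of the 8 also had an adjusted p under 0.05, as did 11.9% of all genes. For Tlr7, Tlr13, Tlr1, Tlr4 and Tlr6 most or all naive astrocyte values were values without signal, and Cd14 had signal in 2 of the 4 libraries. The size of the difference for these genes depends on values without signal and is not given. Tlr2, with signal in every naive astrocyte library, was higher in microglia by 2.64 (SE 0.80, adjusted p = 0.0264 in limma). Myd88 was higher by 2.25 (SE 0.77, adjusted p = 0.0561 in limma). Its naive astrocyte values were 3.65, 4.07, 3.6 and, without signal in library 2, 1.22, so the size depends in part on that value. Tlr3 was 1.14 lower in microglia than in astrocytes without passing the cutoff (SE 0.91, adjusted p = 0.584 in limma) and Tlr9 did not pass it either (0.79, SE 0.49). The naive microglia mean of Tlr3 was drawn down by library 4, at 0.64 without signal. Its other naive microglia values (4.78, 5.1 and 4.42) lay within the naive astrocyte range of 4.27 to 5.34. In EAE-vehicle mice 9 of the 10 were higher in microglia (22.4% of all genes called, 12.4% higher), with Tlr9 the exception. Tlr3 was now among them, at 3.47 above astrocytes (SE 0.74, adjusted p = 0.0012 in limma). In EAE-RIPK1inh mice 8 of the 10 were higher (21.7% of all genes called, 11.7% higher), the exceptions being Tlr9 and Myd88 (1.33, SE 0.69).

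The members called between EAE-vehicle and naive microglia went in both directions. Comparing EAE-vehicle with naive microglia, Tlr1 and Tlr2 were higher and Cd14 and Tlr7 were lower, so 4 of the 10 genes were called, where 12.0% of all 28957 genes tested were (6.13% higher, 5.86% lower). Cd14 alone passed the adjusted threshold, as did 3.92% of all genes. For 3 of the 4 (Tlr1, Tlr7 and Cd14) the 2 groups did not overlap, which held for 5.26% of all genes. The median difference over the 10 genes was −0.44, beside −0.02 over all genes.

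Cd14, which hands lipopolysaccharide to the TLR4 complex, fell furthest. Its level was 9.58, 9.45, 9.16 and 9.92 in the 4 naive microglia libraries, and in the 6 EAE-vehicle libraries it ranged from 6.02 over a median of 7.20 to 7.77. Every EAE-vehicle library lay below every naive one, by more than 1 log2 unit. The difference was −2.43 (SE 0.39, 5.38-fold lower, adjusted p = 0.0019 in limma, exact two-sided permutation p = 0.00476, the smallest that 210 splits allow). It stayed between −2.56 and −2.21 when any 1 library was left out. Microglia markers moved in the same direction, with 7 of the 10 lower and 1 (Aif1) higher, a median difference of −1.18, and a mean level of 10.62 to 11.2 in naive against 9.25 to 9.68 in EAE-vehicle libraries. Monocyte and neutrophil markers moved the other way, with 3 of 9 higher and a mean level of 3.00 to 7.41 in naive and 3.29 to 8.08 in EAE-vehicle libraries, of which Ccr2 and Fpr2 had no signal in naive microglia. Cx3cr1, one of the genes of the sort, had a mean level of 9.13 in naive and 6.49 in EAE-vehicle microglia. The part of these shifts in the values of Cd14 and the other genes was not tested, and in sorted bulk samples fewer cells of a type and less RNA per cell cannot be told apart.

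Tlr7, the endosomal receptor for single-stranded RNA, was also lower. Its level was 6.91, 7.05, 6.84 and 6.69 in naive microglia and ranged from 5.48 over a median of 6.06 to 6.53 in EAE-vehicle microglia, so the groups did not overlap. The difference was −0.83 (SE 0.25, 1.77-fold lower, adjusted p = 0.0899 in limma, exact permutation p = 0.00952). Tlr13, which senses bacterial ribosomal RNA, shifted by −0.59 (SE 0.32) and did not pass the cutoff, although all 6 EAE-vehicle libraries lay below the naive mean. Leaving out naive library 3, its lowest naive value, made the difference −0.90 and brought it past the cutoff, and leaving out naive library 4, its highest, made it −0.33.

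Tlr1 and Tlr2, which form the receptor for triacylated lipoproteins, were both higher. Tlr1 stood at 4.76, 4.78, 4.78 and 1.87 in naive microglia and ranged from 5.00 over a median of 5.49 to 5.80 in EAE-vehicle microglia. The groups did not overlap, but the naive mean was drawn down by library 4, the one with the fewest genes with signal. The difference was 1.40 (SE 0.48, 2.63-fold higher, adjusted p = 0.154 in limma, exact permutation p = 0.00476, again the smallest possible). Without naive library 4 it was 0.67, and with library quality weights 0.72, and it passed the cutoff in both.

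Tlr2 was measured at 5.06, 6.13, 5.67 and 6.37 in naive microglia and ranged from 6.13 over a median of 6.88 to 7.27 in EAE-vehicle microglia. All 6 EAE-vehicle libraries lay above the naive mean, and the lowest of them lay within the naive range. The difference was 0.98 (SE 0.37, 1.97-fold higher, adjusted p = 0.206 in limma, exact permutation p = 0.019). It was 0.73 without naive library 1 and then no longer past the cutoff. Tlr6, the other partner of TLR2, differed by −0.29 (SE 0.37).

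The remaining genes did not pass the cutoff in EAE microglia. The lipopolysaccharide receptor Tlr4 differed by −0.60 (SE 0.38, 95% interval shown in the plot of differences), Tlr9 by −0.78 (SE 0.50), Myd88 by 0.39 (SE 0.44) and Tlr3 by 0.75 (SE 0.73). Tlr3 read 4.78, 5.10, 4.42 and, without signal, 0.64 in naive microglia, and 4.00 to 5.03 in EAE-vehicle microglia. Without naive library 4 its difference was −0.28, so the direction for Tlr3 in microglia rests on that library.

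**Figure D3:**
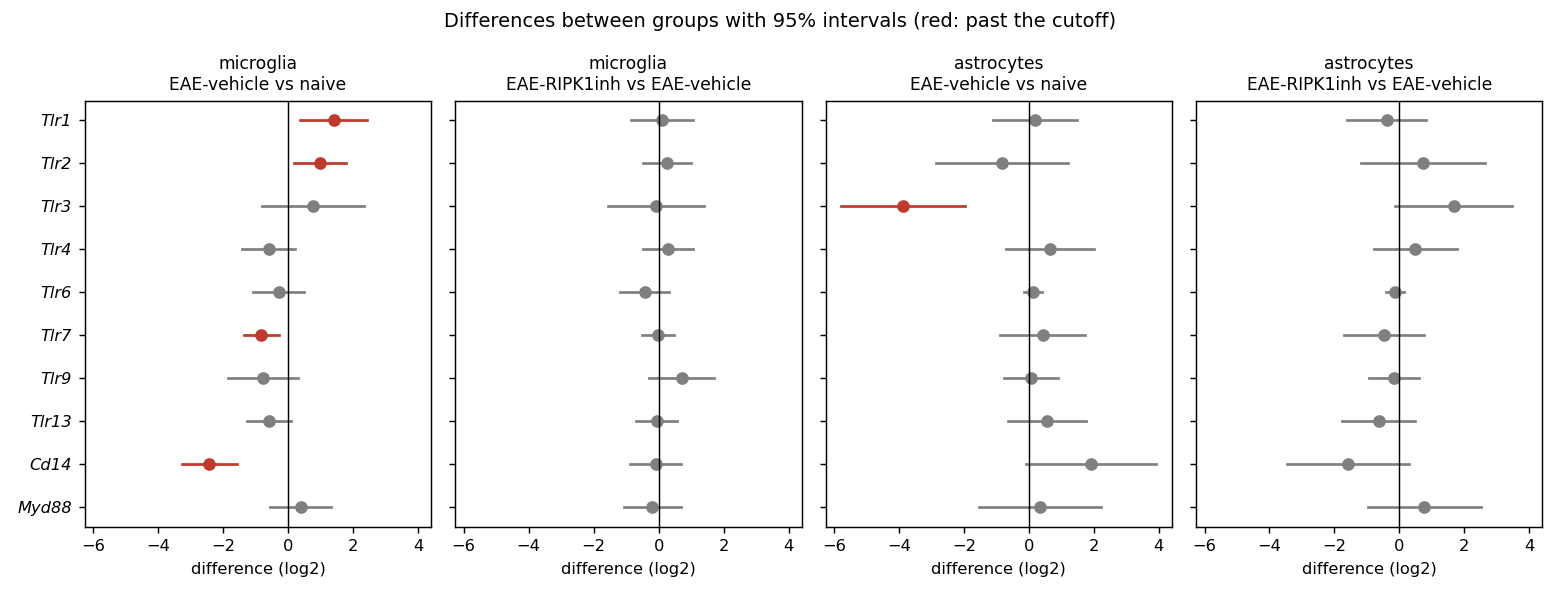
Points give the difference in mean level (log2, horizontal axis) of each gene (vertical axis) in 4 comparisons and bars its 95% interval from limma, with red for genes past the cutoff (fold change over 1.5 and unadjusted p under 0.05). In EAE microglia Tlr1 (1.40), Tlr2 (0.98), Tlr7 (−0.83) and Cd14 (−2.43) are red, in EAE astrocytes Tlr3 (−3.87) is, and no gene is red for RIPK1 inhibition.

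In EAE-vehicle against naive astrocytes 1 of the 10 genes was called, a share not far from that of all genes. It was Tlr3, which had the highest mean level of the 10 in naive astrocytes. Tlr3, the receptor for double-stranded RNA, was called lower in EAE-vehicle against naive astrocytes, where 6.71% of all 30718 genes tested were called and 4.01% were called lower. Its level was 5.06, 4.27, 5.34 and 4.81 in naive astrocytes, and ranged from 0 over a median of 1.03 to 2.48 in the 6 EAE-vehicle libraries, 3 of which had no signal for it. Each EAE-vehicle library lay more than 1 log2 unit below each naive one, and the ranges of 2.30% of all genes did not overlap. The difference was −3.87 (SE 0.90, p = 0.000615, adjusted p = 0.0781 in limma, exact permutation p = 0.00476, the smallest possible). It was called without any 1 library, from −4.16 to −3.66, and was −3.91 without EAE-vehicle library 1.

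Astrocyte markers were lower in the same libraries, with 4 of 8 called lower and 1 higher, a median difference of −1.14, and a mean level of 8.80 to 9.39 in naive against 7.85 to 8.90 in EAE-vehicle astrocytes. Markers of other cells were higher. Oligodendrocyte markers (4 of 7 higher) went from 6.19 to 7.39 in naive to 6.38 to 9.91, T cell markers (5 of 7 higher) from 0.19 to 1.11 to 0.94 to 5.74, and microglia markers (6 of 10 higher, with Aif1 and Itgam without signal in naive astrocytes) from 1.03 to 2.41 to 2.91 to 4.83. Ptprc, which encodes the CD45 that the sort gated out, had a mean level of 1.23 in naive and 4.77 in EAE-vehicle astrocytes, and Slc1a3, which encodes GLAST, of 7.33 and 5.39. Slc1a3 was also at 5.80 in naive and 5.71 in EAE-vehicle microglia, so its RNA level did not set the 2 sorted types apart in EAE. The part of these marker shifts in the lower level of Tlr3 was not tested.

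Cd14 was higher in EAE-vehicle than in naive astrocytes by 1.92 (SE 0.94, adjusted p = 0.766 in limma, exact permutation p = 0.11), which missed the cutoff. Its level was at most 0.76 in the 4 naive libraries, while the 6 EAE-vehicle libraries ranged from 0 over a median of 1.85 to 5.30. The highest of these was library 1, and without it the difference was 1.29. Without EAE-vehicle library 2, 4 or 5, which were low, it passed the cutoff at 2.16 to 2.35. The monocyte and neutrophil markers were at 0.15 to 1.40 in naive and 1.96 to 4.25 in EAE-vehicle astrocytes, with 5 of 9 higher, and their part in Cd14 was not tested.

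The other 8 genes differed between EAE-vehicle and naive astrocytes by −0.82 (Tlr2) to 0.64 (Tlr4), none past the cutoff. Tlr2 spread widely over EAE-vehicle astrocytes, from 0.14 to 4.88 beside 2.23 to 4.63 in naive ones, and Myd88 did so from 0.86 to 5.94 beside 1.22 to 4.07. The median difference over the 10 genes was 0.26, against 0.03 over all genes. For Tlr1, Tlr4, Tlr6, Tlr7, Tlr9 and Tlr13 most or all naive astrocyte values were without signal, so this median depends on such values.

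The effect of EAE differed between the cell types for Tlr3 and Cd14, tested as an interaction in the fit over all 30 libraries, where 8.68% of all genes passed the same cutoff. For Tlr3 the microglia effect exceeded the astrocyte effect by 4.61 (SE 1.17, adjusted p = 0.0517 in limma), and by 3.58 without naive microglia library 4. For Cd14 it lay below the astrocyte effect, with a difference of −4.35 (SE 1.02, adjusted p = 0.0315 in limma, a threshold that 0.982% of all genes passed), which ranged from −4.77 to −3.71 as single libraries were left out and whose size depends on naive astrocyte values at or near 0. With equal library numbers of the cell types paired as a block, both genes kept these values and passed the cutoff. The other 8 genes did not pass. The nearest to it were Tlr7 (−1.24, SE 0.64) and Tlr13 (−1.15, SE 0.63). Neither had signal in any naive astrocyte library, so the size of both depends on values without signal.

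RIPK1 kinase inhibition called none of the 10 genes in microglia, where 1.76% of all genes were called, and none had an unadjusted p under 0.05 in limma. Their differences between EAE-RIPK1inh and EAE-vehicle microglia lay between −0.43 (Tlr6) and 0.71 (Tlr9), with a median of −0.04. For Cd14 the 5 treated libraries read 8.32, 6.85, 6.40, 6.22 and 7.28, spread around the EAE-vehicle values, and the difference was −0.09 with a 95% interval of −0.87 to 0.70. Tlr1 read 5.55, 5.61, 4.94, 5.94 and 5.72, a difference of 0.11 (−0.85 to 1.07). Tlr2 read 6.71, 6.44, 6.43, 7.57 and 8.09, a difference of 0.26 (−0.48 to 1.00), which was 0 without library 5 and 0.74 and past the cutoff with library quality weights. Treated libraries of both genes overlapped the EAE-vehicle range. Tlr7 had the narrowest interval, −0.52 to 0.47 around −0.03, and Tlr3 the widest, −1.56 to 1.39. These intervals do not show that the levels were equal.

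Set against naive microglia, the EAE-RIPK1inh group differed in 4 of the 10 genes, again Tlr1 (1.5, SE 0.50, and 0.78 without naive library 4), Tlr2 (1.24, SE 0.38), Tlr7 (−0.85, SE 0.26) and Cd14 (−2.52, SE 0.41), where 10.1% of all genes were called. Cd14 again was the one gene with an adjusted p under 0.05 (0.00281 in limma), as 2.73% of all genes had. This comparison uses the naive libraries of the EAE-vehicle comparison, so the shared direction is not independent of it.

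In astrocytes RIPK1 kinase inhibition also called none of the 10 genes, where 3.02% of all genes were called and none of the 30718 had an adjusted p under 0.05 in limma. None of the 10 had an unadjusted p under 0.05. Tlr3 came nearest. It read 0.78, 4.29, 2.17, 0.54 and 5.63 in EAE-RIPK1inh astrocytes, so 2 treated libraries lay within or above the naive range and 2 lay within the EAE-vehicle range below 1. The difference from EAE-vehicle was 1.68 (SE 0.84, 95% interval −0.12 to 3.47, p = 0.0649 in limma, exact permutation p = 0.134). It ranged from 0.94 without EAE-RIPK1inh library 5 to 2.21 without library 4, was 0.87 with quality weights, and passed the cutoff without EAE-vehicle library 4 (1.97), EAE-RIPK1inh library 1 (2.15) or library 4, and with values without signal set to 0 (1.90).

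The difference from naive astrocytes was −2.19 (SE 0.93, adjusted p = 0.897 in limma, exact permutation p = 0.127), which was the 1 call among the 10 genes there, beside 4.63% of all genes. It was lost without 6 of the 15 libraries in turn, ranging from −2.93 to −1.65. Cd14 read 0, 0, 0.78, 0 and 1.89, the zeros without signal, a difference from EAE-vehicle astrocytes of −1.59 (SE 0.88, 95% interval −3.46 to 0.29). It was −0.95 without EAE-vehicle library 1, and −2.01 and past the cutoff without EAE-vehicle library 2 or 5. Treated libraries thus lay within the lower part of the EAE-vehicle range. The remaining 8 genes differed by −0.64 (Tlr13) to 0.77 (Myd88). Tlr13 had signal in 2 of the 5 treated libraries and read 2.55 without signal in EAE-vehicle library 1. Its difference was −0.37 without that library. For the interaction of RIPK1 inhibition with cell type, 0 of the 10 genes passed the cutoff, beside 3.15% of all genes.

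The rest of the pathway was followed through 74 genes in 8 lists by role, all present in the table. These lists were written with earlier results of these data known. Their counts and medians describe the listed genes and are no test of the pathway against all genes. In EAE-vehicle against naive microglia 15 of the 74 were higher and 10 lower, 15 of them with an adjusted p under 0.05, where 6.13% of all genes were higher, 5.86% lower and 3.92% passed the adjusted threshold, and their median difference was −0.15. Output genes, the cytokines and other products that TLR signalling induces, moved most. Of 12, 7 rose and 1 fell, with a median of 1.71. Saa3, an acute-phase protein, went from 0.29 to 7.16 (difference 6.87, SE 0.58), the chemokine Ccl5 from 1.94 to 8.60 (6.65, SE 0.58) and the chemokine Cxcl10 from 1.72 to 7.28 (5.55, SE 0.62). Acod1, Ifit1, Il1b and Il12b also rose, and Il6 fell by 1.95.

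Co-receptors and chaperones split in microglia. Of 11, Cd36, a scavenger receptor that works with TLR2, rose from 1.24 to 7.62 (6.38, SE 0.57) and Cd180, a TLR-like receptor, by 0.97. Ly96, which encodes MD-2, the lipopolysaccharide-binding partner of TLR4, went from 6.01 to 4.84 (−1.17, SE 0.35, adjusted p = 0.0829 in limma), in the same direction as Cd14. Unc93b1, which carries the nucleic acid receptors to endosomes, went from 9.42 to 8.33 (−1.10, SE 0.46, adjusted p = 0.286 in limma).

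Among 7 transcription factors Irf7 rose by 2.90, and Irf5 (−1.28, SE 0.59), Rel (−1.17, SE 0.29), Nfkb1 (−1.03) and Irf8 (−0.76) fell, Rel and Irf7 with an adjusted p under 0.05. Of 10 inhibitors, the inhibitory receptor Lilrb4a rose from 4.03 to 8.89 (4.86, SE 0.36) and Sigirr by 1.86, while Cd300a went from 4.64 to 2.55 (−2.09, SE 0.53) and Il1rl1 fell by 1.29. Of 20 kinases and ligases Ikbke (2.41) and Ube2v1 (0.85) rose and none fell. Of 5 other adaptors Tirap, which bridges TLR2 and TLR4 to MYD88, fell by 0.64. Of 4 other receptors Tlr12 rose by 2.25, and of 6 endogenous ligands none was called. The call of Irf5 was lost without 8 of the 15 libraries in turn and that of Unc93b1 without 3. Both calls were lost with the library number as a block (−1.34 and −1.20), and that of Unc93b1 also with quality weights (−1.27). Cxcl10, Il1b, Cd180, Irf5, Irf7, Irf8, Nfkb1, Lilrb4a, Ikbke, Ube2v1 and Tirap are marked in the deposited annotation as confounded with another gene, so their values may hold reads of that gene. The mark is common, on 15717 of all 30952 genes, and Tlr3 and Myd88 carry it too.

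**Figure D4:**
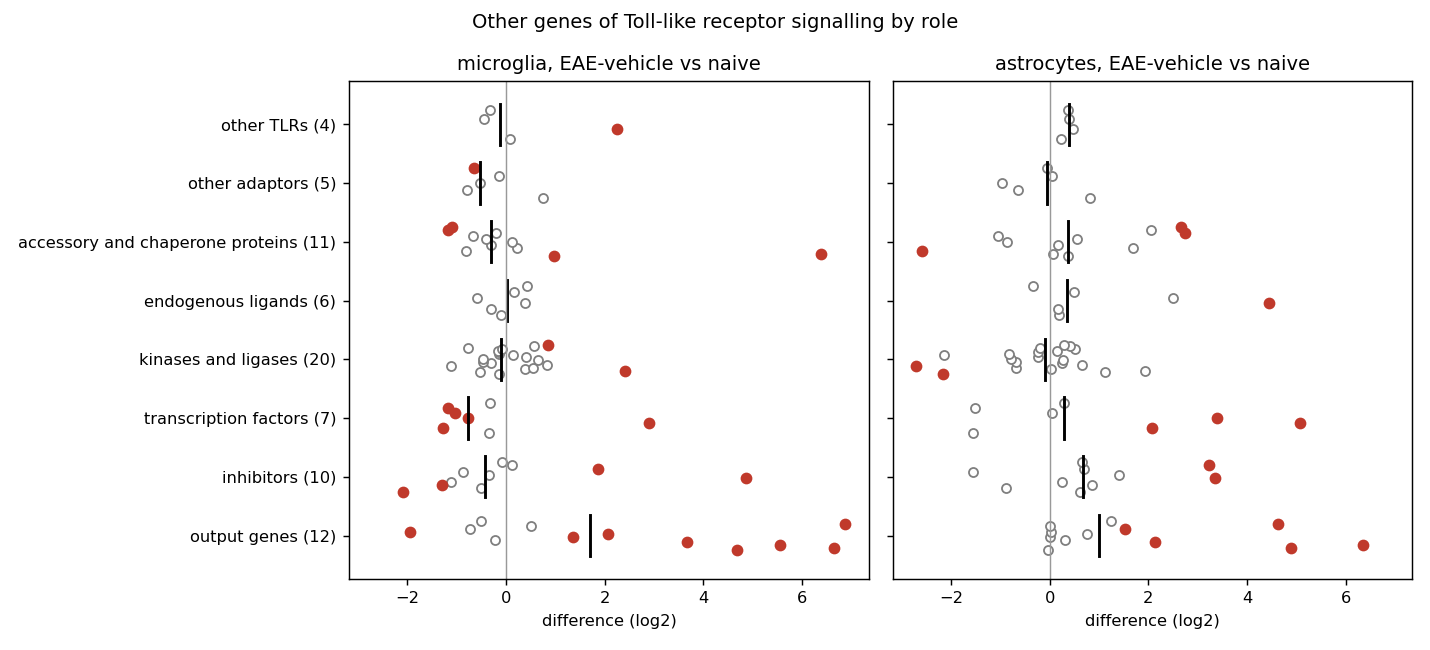
Each point is 1 gene of the wider pathway, placed by its difference between EAE-vehicle and naive (log2, horizontal axis) and by its role (vertical axis, number of genes in brackets), with red points past the cutoff and a line at the median of each list. Output genes have the highest median in microglia (1.71) and in astrocytes (1.01), in lists written with earlier results of these data known.

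In EAE-vehicle against naive astrocytes 13 of the 74 genes were higher and 3 lower, 3 of them with an adjusted p under 0.05, where 2.69% of all genes were higher, 4.01% lower and 0.579% passed the adjusted threshold. The share called lower was therefore near that of all genes. Output genes had the highest median difference of the 8 lists (1.01), with 5 of 12 higher. Cxcl10 went from 0.20 to 6.55 (6.35, SE 0.74), Ccl5 from 0.66 to 5.55 (4.89, SE 1.16) and Saa3 from 0.20 to 4.83 (4.63, SE 0.77), and Nfkbiz and Ifit1 also rose. Irf7 (5.07, SE 1.07), Irf8 and Irf5 were higher among 7 transcription factors, the ligand S100a8 (4.44, SE 1.30) among 6, Tnfaip3 and Lilrb4a among 10 inhibitors, and Ly86 and Unc93b1 among 11 chaperones and co-receptors. The genes called lower were the kinase Irak2 (−2.70, SE 0.97), the chaperone Cnpy3 (−2.58, SE 1.18), which folds TLRs, and the kinase Chuk (−2.15, SE 0.78). The call of Cnpy3 was lost without 8 of the 15 libraries in turn, and Cnpy3 and Irak2 are also marked as confounded. The markers of leukocytes and oligodendrocytes given for Tlr3 and Cd14 moved in these same libraries, and S100a8 is itself among the monocyte and neutrophil markers.

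Under RIPK1 kinase inhibition 3 of the 74 genes were called in microglia and 2 in astrocytes, beside 1.76% and 3.02% of all genes, so the share in astrocytes did not exceed that of all genes, and none had an adjusted p under 0.05. In microglia Cd300a was higher (1.26, SE 0.50), and the ubiquitin ligase Peli2 (−1.18, SE 0.42) and its partner in ubiquitin signalling Ube2v1 (−0.69, SE 0.18) were lower. The median over the 74 genes was 0.12. In astrocytes Saa3 went from 4.83 to 2.61 (−2.22, SE 0.72) and the kinase Ikbkb from 3.78 to 1.72 (−2.06, SE 0.92), with a median over the 74 genes of −0.07. Adjusted p-values of these 5 genes were 0.84 or 0.93 in limma. With each of the 15 libraries left out in turn, the call of Ikbkb was lost 9 times, that of Cd300a 4 times and that of Ube2v1 1 time. The block on library number also ended the calls of Cd300a (1.06) and Ikbkb (−2.07), and quality weights (−1.85) and values without signal set to 0 ended that of Ikbkb. Peli2, Ube2v1 and Ikbkb are marked as confounded with another gene. These comparisons use the same EAE-vehicle libraries as those with naive, so opposite directions in the pair, as for Cd300a in microglia, are not independent.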

How the data were processed

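The deposited table holds log2 FPKM values of 30952 genes in 30 libraries. Per the labels and the study's methods, the authors purified poly(A) RNA from sorted cells, amplified cDNA, cut it with Tn5 and processed the reads in OmicSoft Array Studio, including quantile normalization. The aligner, the annotation release and the offset added before the log2 step are not given in the sources used here. The table has no counts, so depth is unknown and no counting interval is given. Genes without signal hold the lowest values of a library, in file order.

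Differences were fitted with limma 3.58.1 (R 4.3.3) with an intensity trend, 3 groups of a cell type in 1 fit, and all 6 groups in 1 fit for contrasts of cell types. Genes with the same value in every library of a fit were left out. Exact two-sided permutation tests over the libraries were run for the 10 genes. The text names all 10, and from the 74 pathway genes the 5 largest called rises and falls per comparison with a mean level of at least 1; other pathway genes are named because few of a list were called, after their values were seen. The members and lists were chosen with earlier results of these data known. Alternatives were a filter at a mean level of 1, log2(2^value + 1), values without signal set to 0, centred libraries, quality weights, a replicate block, fits of 2 groups and leaving out each library, and, chosen after seeing the data, genes with signal as a covariate. The code was tested on simulated data.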

Additional observations from a re-analysis of the deposited data

Results flagged for a closer look

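In 11 of 55 groups of libraries with signal for a gene, 1 library lay far from the others of its group. The cutoff used flags about 1 in 20 groups if values are normally distributed and groups independent. That does not hold here, because in several astrocyte groups only 1 library had signal and genes share the same libraries. The count is therefore not set against chance. In naive microglia the outlying library was library 4, lowest for Tlr1 at 1.87 (next 4.76) and for Tlr3 at 0.64 (next 4.42), and it also had the fewest genes with signal among microglia. In EAE-RIPK1inh microglia library 3 was lowest for Tlr3 at 2.74 (next 4.57). In astrocytes Tlr1 was highest in library 1 of all 3 groups, at 1.97 (naive, next 0.18), 3.04 (EAE-vehicle, next 0.77) and 1.53 (EAE-RIPK1inh, next 0.15). Among EAE-vehicle astrocytes Tlr6 was highest in library 2 at 0.88 (next 0.24) and Tlr9 in library 1 at 2.11 (next 0.46), the latter a value without signal. Tlr7 was highest in EAE-RIPK1inh astrocyte library 5 at 1.46 (next 0.54), Cd14 was highest in naive astrocyte library 3 at 0.76 (next 0.02), and Myd88 was lowest in naive astrocyte library 2 at 1.22 (next 3.60), without signal.

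The effect of EAE differed between microglia and astrocytes for 2 of the 10 genes, by an interaction term in limma. It was 4.61 for Tlr3 (microglia 0.75, astrocytes −3.87) and −4.35 for Cd14 (microglia −2.43, astrocytes 1.92), with adjusted p-values of 0.0517 and 0.0315 in limma. Microglia markers were lower in EAE microglia and higher in EAE astrocytes, and their part in these differences was not tested.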

How the results depend on the processing

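Over all alternatives the calls of Cd14, Tlr7 and Tlr1 in EAE microglia, of Tlr3 in EAE astrocytes and of the Tlr3 and Cd14 interactions kept their direction and side of the cutoff, while that of Tlr2 in EAE microglia was lost with quality weights (1.00) and without naive library 1 (0.73). Counts of called genes moved as follows, and the causes were not tested. In astrocytes RIPK1 inhibition called 1 gene (Tlr3, 1.90) with values without signal set to 0, EAE called 2 with the filter or the covariate, and EAE-RIPK1inh against naive called 0 with only the 2 groups. For the interaction with EAE 4 genes were called with values without signal set to 0 and with quality weights, and for that with RIPK1 inhibition 1 with the covariate. In microglia RIPK1 inhibition called 1 gene (Tlr2, 0.74) with quality weights. Leaving out single libraries gave 0 to 1 genes for RIPK1 inhibition in astrocytes, 0 to 1 for EAE-RIPK1inh against naive astrocytes, 1 to 2 for EAE in astrocytes, 2 to 5 for the EAE interaction and 0 to 1 for the RIPK1 interaction.

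The differences that changed sign were of genes that were not called. With quality weights Cd14 (0.04), Tlr13 (0.09), Tlr3 (0.13) and Tlr7 (0.02) did so for RIPK1 inhibition in microglia, Tlr3 (−0.12) for EAE in microglia, Tlr9 (0.17) for EAE-RIPK1inh against naive microglia and Myd88 (−0.11) for EAE in astrocytes. With the replicate block Myd88 was −0.16 for EAE in astrocytes, and Tlr2 was 0.21 and Tlr9 0.01 against naive in treated astrocytes and microglia. Against naive, the covariate gave Tlr2 0.08 and Tlr9 0.09, and values without signal at 0 gave Tlr7 0.47 in treated astrocytes. Leaving out single libraries gave, for RIPK1 inhibition in microglia, −0.41 to 0.11 for Cd14, −0.43 to 0.20 for Myd88, −0.20 to 0.09 for Tlr13, −0.28 to 0.32 for Tlr3 and −0.14 to 0.10 for Tlr7. It gave −0.68 to 0.06 for Tlr1 under RIPK1 inhibition in astrocytes, and for EAE −0.30 to 0.86 for Myd88 and −0.26 to 0.65 for Tlr1 in astrocytes and −0.28 to 1.20 for Tlr3 in microglia. For EAE-RIPK1inh against naive it gave −0.04 to 0.59 for Myd88, −0.37 to 1.11 for Tlr3 and −0.45 to 0.26 for Tlr9 in microglia, and −0.40 to 0.39 for Tlr2 and −0.31 to 0.25 for Tlr7 in astrocytes.

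Whether equal library numbers mark the same mouse is not known, and their deviations correlated by more than 0.1 in 4 of 13 pairs of microglia groups, 0 of 13 of astrocyte groups and 1 of 15 across cell types. With the replicate block the number of the 10 genes called stayed at 4 for EAE in microglia and at 1 in astrocytes, and among the named pathway genes the calls of Irf5 and Unc93b1 in EAE microglia and of Cd300a and Ikbkb under RIPK1 inhibition were lost. Centring moved the median of all genes by at most 0.10. Without counts, a value near 0 cannot be given a detection limit.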
